A study of Homo sapiens with 17 samples.

Results

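The genes described here are 30 genes of cholesterol and fatty acid synthesis, found by their symbols among the 34496 gene rows of a count table that covers 10 RNA sequencing libraries. They fall into 17 genes of the sterol branch, 8 genes of the fatty acid branch and 5 genes grouped as SREBP regulators. The last group holds SREBF1 and SREBF2, which encode the SREBP transcription factors, their regulators SCAP and INSIG1, and the cholesterol carrier STARD4. All 30 passed the filter on low counts that left 13241 genes for testing. The libraries came from human head and neck cancer cell lines. Cal27, which derives from a squamous carcinoma of the tongue, was measured as parental cells and as a derivative labelled NSD1KO, a knockout of the histone H3 lysine methyltransferase NSD1. There were 2 libraries of the labelled knockout with EPZ-6438 (tazemetostat, an inhibitor of the Polycomb methyltransferase EZH2), 2 of the labelled knockout with DMSO (the solvent) and 2 of Cal27 with DMSO. A further 4 libraries, 1 each, held the untreated labelled knockout, the untreated lines SKN3 and BICR78, and untreated Cal27. The sources used here give neither dose nor duration of treatment. Only 1 labelled knockout line was measured, so clone and genotype cannot be told apart, and no library of Cal27 with EPZ-6438 was analysed here.

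Cells build cholesterol from acetyl-CoA through mevalonate, farnesyl diphosphate, squalene and lanosterol, and build fatty acids from the same acetyl-CoA through malonyl-CoA, followed by elongation and desaturation. The SREBP factors switch on both branches. SCAP escorts them out of the endoplasmic reticulum when sterols are scarce, and INSIG1 holds SCAP back when sterols are plentiful, so that many genes of the sterol branch are known to move together. SREBF1 is tied mostly to fatty acid genes and SREBF2 mostly to sterol genes.

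Total counts per library ran from 11745655 to 15509079 in the 6 treated or DMSO libraries, and the 4 untreated libraries held 17587063 to 21738951. Levels are given as counts per 1000000 reads (CPM) after TMM scaling, not corrected for gene length, so they compare libraries and not genes. NSD1 mRNA was 161 and 149.8 CPM in the labelled knockout with EPZ-6438, 165 and 163 CPM in the labelled knockout with DMSO, and 113 and 114 CPM in Cal27 with DMSO. It was 205 CPM in the untreated labelled knockout, 80.2 CPM in SKN3, 0.464 CPM in BICR78 and 150.3 CPM in untreated Cal27. The transcript was thus higher in the labelled knockout than in Cal27, which does not check the label, since counts per gene do not show an edit. Of the markers of squamous epithelium, 6 of 7 were above 5 CPM in all 6 libraries, SOX2 being the exception. Their summed level was 2114 and 2123 CPM with EPZ-6438, 3372 and 3481 CPM in the labelled knockout with DMSO, and 7469 and 7404 CPM in Cal27 with DMSO. KRT5 was its largest part, with means of 873, 1934 and 4009 CPM in these groups. In the labelled knockout with DMSO, 5 markers fell, EPCAM rose (log2 0.11) and CDH1 was not called (log2 0.013). With EPZ-6438, 5 markers fell, and SOX2 (log2 2.12) and KRT17 (log2 0.20) rose. In the untreated libraries the sum was 4213 CPM in the labelled knockout, 3911 CPM in SKN3, 11003 CPM in BICR78 and 21171 CPM in Cal27. The summed level moved with the groups of every comparison below, and its part in the results was not tested. Adipocyte and hepatocyte markers, from cells that make much lipid, summed to at most 6.55 and 0.206 CPM in any of the 10 libraries. Fibroblast markers summed to 21.2 and 24.99 CPM with EPZ-6438, 9.95 and 7.46 CPM in the labelled knockout with DMSO, and 20.6 and 18.8 CPM in Cal27 with DMSO, and to at most 55.1 CPM in any library. Endothelial markers, mostly CDH5, summed to 26.2 and 28.8 CPM with EPZ-6438, 23.0 and 20.6 CPM in the labelled knockout with DMSO, and 17.4 and 17.1 CPM in Cal27 with DMSO. Their sum was 87.3 CPM in the untreated labelled knockout and 5.56 CPM in untreated Cal27. Of the 5 immune markers, CD68 and LAPTM5 carried most of a sum of 235 and 229 CPM with EPZ-6438, 177 and 181 CPM in the labelled knockout with DMSO, and 82.1 and 81.8 CPM in Cal27 with DMSO. PTPRC, the marker of all leukocytes, stayed at or below 0.513 CPM. The mitochondrial share of counts was 5.83% and 5.44% with EPZ-6438, 6.27% and 6.08% in the labelled knockout with DMSO, and 7.06% and 7.25% in Cal27 with DMSO, and it was 5.94% in the untreated labelled knockout and 7.48% in untreated Cal27. The fibroblast, immune, endothelial and mitochondrial levels differed between groups too, and their part in the results was not tested.

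Of the 30 genes, 27 had at least 1 promoter window in a RefSeq table of assembly GRCh38.p14. FDFT1, SQLE and FASN had none. Printed here are the 250 bases before the annotated start of HMGCS1, SCD, SREBF1 and INSIG1, which had the lowest adjusted p among the 30 in the labelled knockout, of STARD4, which rose most with EPZ-6438, and of SREBF2. Each runs 5′ to 3′ on the strand of its gene. Capitals mark matches, on either strand, to TCACNCCAC (a core of the sterol regulatory element), to CCAAT (the box bound by NF-Y) and to GGGCGG (the GC box bound by Sp1).
HMGCS1: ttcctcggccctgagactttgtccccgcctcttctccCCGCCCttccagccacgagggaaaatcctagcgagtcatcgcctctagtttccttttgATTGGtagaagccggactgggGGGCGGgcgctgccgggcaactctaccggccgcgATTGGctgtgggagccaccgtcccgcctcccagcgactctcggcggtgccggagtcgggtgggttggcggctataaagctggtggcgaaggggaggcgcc
SCD: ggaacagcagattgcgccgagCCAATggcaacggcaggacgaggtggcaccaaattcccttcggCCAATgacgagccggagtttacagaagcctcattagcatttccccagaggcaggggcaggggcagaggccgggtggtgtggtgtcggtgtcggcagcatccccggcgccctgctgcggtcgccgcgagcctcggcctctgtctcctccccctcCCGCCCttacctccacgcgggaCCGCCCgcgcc
SREBF1: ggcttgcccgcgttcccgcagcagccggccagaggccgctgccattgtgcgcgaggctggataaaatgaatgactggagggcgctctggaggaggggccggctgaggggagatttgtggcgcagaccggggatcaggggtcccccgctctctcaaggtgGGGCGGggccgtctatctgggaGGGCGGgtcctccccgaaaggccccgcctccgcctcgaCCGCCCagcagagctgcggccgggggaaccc
INSIG1: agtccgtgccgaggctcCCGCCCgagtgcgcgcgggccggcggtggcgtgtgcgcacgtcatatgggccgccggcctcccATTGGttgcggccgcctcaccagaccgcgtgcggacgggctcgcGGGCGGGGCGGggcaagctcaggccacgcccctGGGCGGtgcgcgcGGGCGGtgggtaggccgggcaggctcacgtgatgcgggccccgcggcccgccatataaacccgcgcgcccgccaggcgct
SREBF2: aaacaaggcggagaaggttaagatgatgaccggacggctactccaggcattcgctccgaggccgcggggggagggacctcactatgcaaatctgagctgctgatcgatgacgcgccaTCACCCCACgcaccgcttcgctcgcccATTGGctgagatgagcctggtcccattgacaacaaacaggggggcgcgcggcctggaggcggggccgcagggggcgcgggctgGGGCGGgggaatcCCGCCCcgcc
STARD4: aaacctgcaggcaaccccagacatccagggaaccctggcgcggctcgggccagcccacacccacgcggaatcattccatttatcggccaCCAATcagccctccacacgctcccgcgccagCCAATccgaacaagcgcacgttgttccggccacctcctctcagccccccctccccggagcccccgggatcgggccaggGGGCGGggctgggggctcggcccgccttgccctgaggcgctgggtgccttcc

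The windows lie at chr5:43313413-43313662 on the minus strand for HMGCS1, chr10:100346983-100347232 on the plus strand for SCD and chr17:17836987-17837236 on the minus strand for SREBF1. Those of INSIG1 (chr7:155297628-155297877) and SREBF2 (chr22:41832855-41833104) are on the plus strand, and that of STARD4 (chr5:111512536-111512785) is on the minus strand. HMGCS1 had 2 windows, of which the first is printed. Only the SREBF2 window held TCACNCCAC. That motif was present in 1 of the 27 genes matched, in 2.70% of their windows against 0.883% of all 35116 windows of that length. CCAAT was present in 20 of 27 genes, in 64.9% of their 37 windows against 32.0% of all windows, and twin copies stood in HMGCS1, SCD and STARD4. GGGCGG was present in 26 of 27 genes, in 89.2% of their windows against 42.6% of all windows and 53.7% of windows of protein-coding genes. The GGGCGG matches of INSIG1 number 5, of which a pair overlaps by 1 base. A match is a run of letters and not a shown binding site, and a window without one says nothing of the factor.

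The first comparison asked what the labelled NSD1 knockout changes, with DMSO in both groups. HMGCS1, HMG-CoA synthase at the start of the mevalonate route, fell by 39.9%. SCD, which makes monounsaturated fatty acids, fell by 33.9%, and SREBF1, which encodes an SREBP, fell by 35.1%. INSIG1, which restrains the SREBPs, fell by 26.6%. Apart from HMGCS1, PMVK and MVD, no sterol gene changed by more than FDFT1, at a log2 value of -0.17. Of the 30 genes, 2 rose and 11 fell (edgeR quasi-likelihood test, adjusted p below 0.05), or 43.3%. The background was 16.4% higher and 19.5% lower, or 35.9% in either direction, among the 13241 genes tested. Scaling by library size alone changed that split to 2978 higher and 2088 lower genes, from 2169 and 2580, and called 2 of the 30 genes higher and 7 lower. The median log2 fold change was -0.076 over the 30 genes and -0.0061 over all genes. Libraries of both groups did not overlap for 21 of the 30 genes, against 67.1% of all genes. No label says that replicates came from separate cultures, so each p-value reflects the spread between libraries that may be technical repeats. Levels are relative to all RNA in a library, so fewer cells expressing a gene and less RNA per cell cannot be told apart.

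In the sterol branch, 1 gene rose, 5 fell and 11 did not pass the test. HMGCS1 had 154 and 148 CPM in the labelled knockout, against 245 and 255 CPM in Cal27. Its log2 fold change was -0.73 ± 0.04 (SE; edgeR adjusted p = 8.59e-11), and both knockout libraries lay far below both Cal27 libraries. The gap between groups was many times the gap between replicates. MVD, the decarboxylase that yields isopentenyl diphosphate, had 37.1 and 38.8 CPM in the labelled knockout, against 48.0 and 50.9 CPM in Cal27 (log2 -0.39 ± 0.06, SE; edgeR adjusted p = 1.60e-04). PMVK, the kinase of the step before it, had 7.38 and 7.17 CPM in the labelled knockout, against 9.96 and 10.9 CPM in Cal27 (log2 -0.52 ± 0.14, SE; edgeR adjusted p = 0.00796). Both decreases came without overlap, though PMVK lost its call without either second replicate and in DESeq2. FDFT1, squalene synthase and the entry to the sterol line proper, had 329 and 331 CPM in the labelled knockout, against 371 and 369 CPM in Cal27 (log2 -0.17 ± 0.03, SE; edgeR adjusted p = 1.64e-04).

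Of the other sterol genes, SQLE, the squalene epoxidase and a slow step of the pathway, was at 86.7 and 91.4 CPM in the labelled knockout and at 97.5 and 98.2 CPM in Cal27 (log2 -0.14; edgeR adjusted p = 0.0265). LSS, lanosterol synthase, was at 157 and 163 CPM in the labelled knockout and at 149.8 and 147 CPM in Cal27, and it was the only sterol gene called higher (log2 0.10; edgeR adjusted p = 0.0499). Both changes were small. The call of SQLE was lost in 6 of 15 alternatives and that of LSS in 9 of 15. Genes that did not pass the test spanned log2 values from -0.14 for SC5D to 0.11 for HSD17B7. They were MVK, IDI1, FDPS, CYP51A1, TM7SF2, MSMO1, NSDHL, HSD17B7, EBP, SC5D and DHCR7, which include most enzymes between lanosterol and cholesterol. Among the 6 mevalonate and isoprenoid enzymes (HMGCS1, MVK, PMVK, MVD, IDI1 and FDPS), 3 fell, or 50%. Among the 11 enzymes from squalene onward 1 rose and 2 fell, or 27.3%. Called genes made up 35.3% of the whole branch, close to the 35.9% of all genes tested. The difference between the early and late part of the pathway was not tested. The gene of MVK overlaps MMAB and that of IDI1 overlaps WDR37 in the annotation, and whether reads were counted by strand is not given in the sources used here, so their counts are uncertain.

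In the fatty acid branch, 1 gene rose, 3 fell and 4 did not pass the test. Called genes made up 50% of this branch, against 35.9% of all genes tested. SCD had 1156 CPM in each library of the labelled knockout, against 1741 and 1745 CPM in Cal27 (log2 -0.60 ± 0.02, SE; edgeR adjusted p = 1.37e-12). ELOVL6, the elongase that lengthens palmitate, moved the other way, with 44.0 and 45.3 CPM in the labelled knockout, against 31.8 and 35.0 CPM in Cal27 (log2 0.41 ± 0.07, SE; edgeR adjusted p = 2.19e-04). The desaturase and the elongase, which act on the same saturated chains, thus went in opposite directions. Neither had libraries that overlapped between groups, as was so for 67.1% of all genes tested. ACACA, the acetyl-CoA carboxylase of the committed step, had 214 and 207 CPM in the labelled knockout, against 233 and 225 CPM in Cal27 (log2 -0.13 ± 0.03, SE; edgeR adjusted p = 0.00879). ACSS2, which makes acetyl-CoA from acetate, had 51.8 and 52.9 CPM in the labelled knockout, against 57.4 and 60.3 CPM in Cal27 (log2 -0.17 ± 0.06, SE; edgeR adjusted p = 0.0414). Without replicate 1 of Cal27 or replicate 2 of the labelled knockout, neither ACACA nor ACSS2 was called, which left SCD as the only fatty acid gene lower, and ACSS2 was lost without any 1 of the 4 libraries. FASN, the fatty acid synthase itself, stood at 641 and 649 CPM in the labelled knockout and at 660.3 and 627 CPM in Cal27, and its libraries overlapped. ACLY, FADS1 and FADS2 had log2 values of -0.064, -0.065 and -0.22 and did not pass the test. ACACA overlaps C17orf78 and a pseudogene, and FADS1 overlaps FADS2, with the same uncertainty of counting.

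Of the 5 regulators, 3 fell and 2 did not pass the test, where 16.4% of all genes tested rose and 19.5% fell. SREBF1 had 298 and 307 CPM in the labelled knockout, against 473 and 455 CPM in Cal27 (log2 -0.62 ± 0.03, SE; edgeR adjusted p = 7.94e-11). INSIG1, the anchor that keeps SCAP in the endoplasmic reticulum, had 82.5 and 83.2 CPM in the labelled knockout, against 110.5 and 114 CPM in Cal27 (log2 -0.45 ± 0.05, SE; edgeR adjusted p = 7.43e-07). STARD4, a carrier that moves cholesterol between membranes, had 77.0 and 73.1 CPM in the labelled knockout, against 85.8 and 82.9 CPM in Cal27 (log2 -0.17 ± 0.05, SE; edgeR adjusted p = 0.0111). All 3 were lower in both knockout libraries than in either Cal27 library. STARD4 was not called without replicate 1 of Cal27 or replicate 2 of the labelled knockout, and INSIG1 lost its call once the untreated pair was added to the fit (log2 -0.26; edgeR adjusted p = 0.123). SREBF2 was at 298 and 301 CPM in the labelled knockout and at 299.4 and 299.0 CPM in Cal27 (log2 -0.0058 ± 0.03, SE; edgeR adjusted p = 0.915). SCAP was at 32.5 and 29.7 CPM in the labelled knockout and at 29.4 and 30.3 CPM in Cal27 (log2 0.050 ± 0.08, SE; edgeR adjusted p = 0.662). SREBF1 overlaps RAI1, so its counts are uncertain too. RAI1 had 108 and 109 CPM in the labelled knockout and 96.4 and 92.8 CPM in Cal27, and in the untreated libraries it had 141 CPM in the labelled knockout and 159.7 CPM in Cal27.

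**Figure D1:**
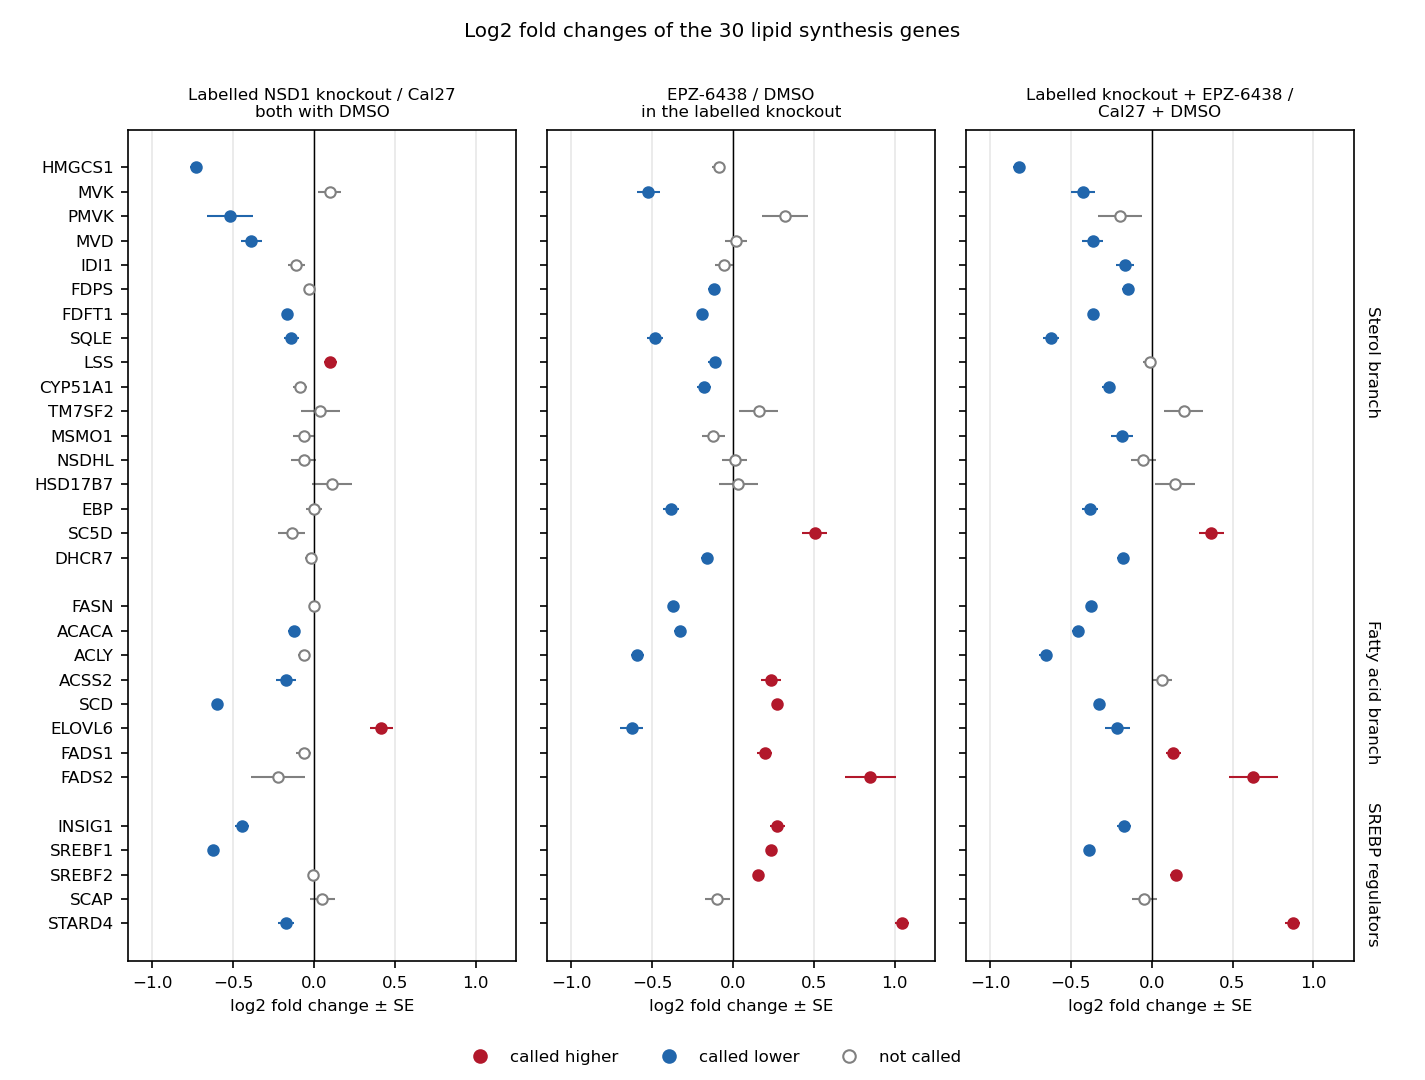
Log2 fold change (horizontal axis, with SE bars) of each of the 30 genes, by branch from top to bottom, for the labelled NSD1 knockout with DMSO over Cal27 with DMSO (left), EPZ-6438 over DMSO in the labelled knockout (middle) and the labelled knockout with EPZ-6438 over Cal27 with DMSO (right). Filled points passed the test, 13 on the left, 21 in the middle and 23 on the right, and the middle panel shows the sterol genes mostly left of 0 and the regulators mostly right of it.

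The second comparison asked what EPZ-6438 changes in the labelled knockout, relative to DMSO in the same line. STARD4, SREBF1, INSIG1 and SREBF2 rose, 8 sterol enzymes led by MVK and SQLE fell, and the fatty acid branch split into 4 genes that rose and 4 that fell. Of the 30 genes, 9 rose and 12 fell, or 70.0%, against a background of 25.6% higher, 23.9% lower and 49.6% in either direction. The median log2 fold change was -0.071 over the 30 genes and 0.0029 over all genes. Groups did not overlap for 26 of the 30 genes, against 73.8% of all genes. Most of these changes were small. Tested against a log2 fold of 0.5, STARD4 and FADS2 were higher and ACLY lower. Of all 13241 genes, 1272 were higher and 204 lower by that test.

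STARD4 changed most of all 30 genes. It had 151 and 157 CPM with EPZ-6438, against 77.0 and 73.1 CPM with DMSO (log2 1.05 ± 0.05, SE; edgeR adjusted p = 6.20e-12). SREBF1 had 350.1 and 359.6 CPM with EPZ-6438, against 298 and 307 CPM with DMSO (log2 0.24 ± 0.03, SE; edgeR adjusted p = 1.02e-05). INSIG1 had 101 and 98.5 CPM with EPZ-6438, against 82.5 and 83.2 CPM with DMSO (log2 0.27 ± 0.05, SE; edgeR adjusted p = 1.05e-04). Both treated libraries of each gene lay above both DMSO libraries. SREBF2 had 320.1 and 343 CPM with EPZ-6438, against 298 and 301 CPM with DMSO (log2 0.15 ± 0.03, SE; edgeR adjusted p = 0.00106), with the treated replicates further apart than the DMSO ones. SCAP, at 29.5 and 28.5 CPM with EPZ-6438 and 32.5 and 29.7 CPM with DMSO, did not pass the test. Of the 5 regulators, 4 rose and none fell, where 25.6% of all genes tested rose and 23.9% fell.

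In the sterol branch, 1 gene rose, 8 fell and 8 did not pass the test. Called genes made up 52.9% of the branch, close to the 49.6% of all genes tested. SQLE had 62.9 and 64.1 CPM with EPZ-6438, against 86.7 and 91.4 CPM with DMSO (log2 -0.48 ± 0.05, SE; edgeR adjusted p = 4.94e-07). MVK, mevalonate kinase, had 26.1 and 25.5 CPM with EPZ-6438, against 37.0 and 37.4 CPM with DMSO (log2 -0.52 ± 0.07, SE; edgeR adjusted p = 1.46e-05). EBP, the isomerase that shifts the double bond of the sterol ring, had 70.0 and 75.7 CPM with EPZ-6438, against 92.4 and 98.8 CPM with DMSO (log2 -0.38 ± 0.05, SE; edgeR adjusted p = 1.29e-05). The treated libraries of all 3 genes were below the DMSO libraries without overlap. FDFT1 had 289.6 and 285 CPM with EPZ-6438, against 329 and 331 CPM with DMSO (log2 -0.19 ± 0.03, SE; edgeR adjusted p = 3.47e-05). CYP51A1 (the lanosterol demethylase), DHCR7 (a reductase of the last steps), FDPS (farnesyl diphosphate synthase) and LSS also fell, with log2 values from -0.18 to -0.11. Without replicate 2 of the labelled knockout with DMSO, FDPS, LSS and DHCR7 were not called, which left 5 sterol genes lower.

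SC5D, the desaturase of a late step, was the exception, with 38.9 and 34.8 CPM under EPZ-6438, against 25.8 and 26.0 CPM with DMSO (log2 0.51). HMGCS1, the gene that fell most in the labelled knockout, was at 143 and 140.0 CPM with EPZ-6438 and at 154 and 148 CPM with DMSO, and did not pass the test (log2 -0.088; edgeR adjusted p = 0.0770). MVD was at 38.2 and 38.5 CPM with EPZ-6438 and overlapped its DMSO libraries. PMVK was at 9.22 and 8.95 CPM with EPZ-6438 and 7.38 and 7.17 CPM with DMSO, which did not overlap but did not pass the test (edgeR adjusted p = 0.0726). IDI1, TM7SF2, MSMO1, NSDHL and HSD17B7 lay between -0.12 and 0.16 on the log2 scale without a call. For MSMO1, the methylsterol oxidase, the treated libraries were 57.3 and 69.3 CPM, and without the second of them it was called lower.

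Of the 8 fatty acid genes, 4 rose and 4 fell, where 25.6% of all genes tested rose and 23.9% fell. ACLY, FASN and ACACA were among those that fell. ACLY, which releases acetyl-CoA from citrate, had 141 and 155 CPM with EPZ-6438, against 224 and 225 CPM with DMSO (log2 -0.59 ± 0.04, SE; edgeR adjusted p = 2.65e-09). FASN had 496 CPM in each library with EPZ-6438, against 641 and 649 CPM with DMSO (log2 -0.37 ± 0.03, SE; edgeR adjusted p = 1.21e-08). ACACA had 164 and 169 CPM with EPZ-6438, against 214 and 207 CPM with DMSO (log2 -0.33 ± 0.04, SE; edgeR adjusted p = 1.03e-06). ELOVL6 fell with them, at 29.7 and 28.1 CPM with EPZ-6438 and 44.0 and 45.3 CPM with DMSO (log2 -0.63). The members that rose were the 3 desaturases and ACSS2. SCD had 1385 and 1393 CPM with EPZ-6438, against 1156 CPM in each DMSO library (log2 0.27 ± 0.02, SE; edgeR adjusted p = 2.64e-08). FADS2, which desaturates polyunsaturated chains, had 11.1 and 11.5 CPM with EPZ-6438, against 5.44 and 7.10 CPM with DMSO (log2 0.85), and FADS1, its neighbour on chromosome 11, had 114 and 111 CPM with EPZ-6438, against 101 and 95.2 CPM with DMSO (log2 0.20). ACSS2 had 57.9 and 64.6 CPM with EPZ-6438, against 51.8 and 52.9 CPM with DMSO (log2 0.24), and was not called without the second treated library. No fatty acid gene had libraries that overlapped between these groups, and 73.8% of all genes tested did not overlap either.

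**Figure D2:**
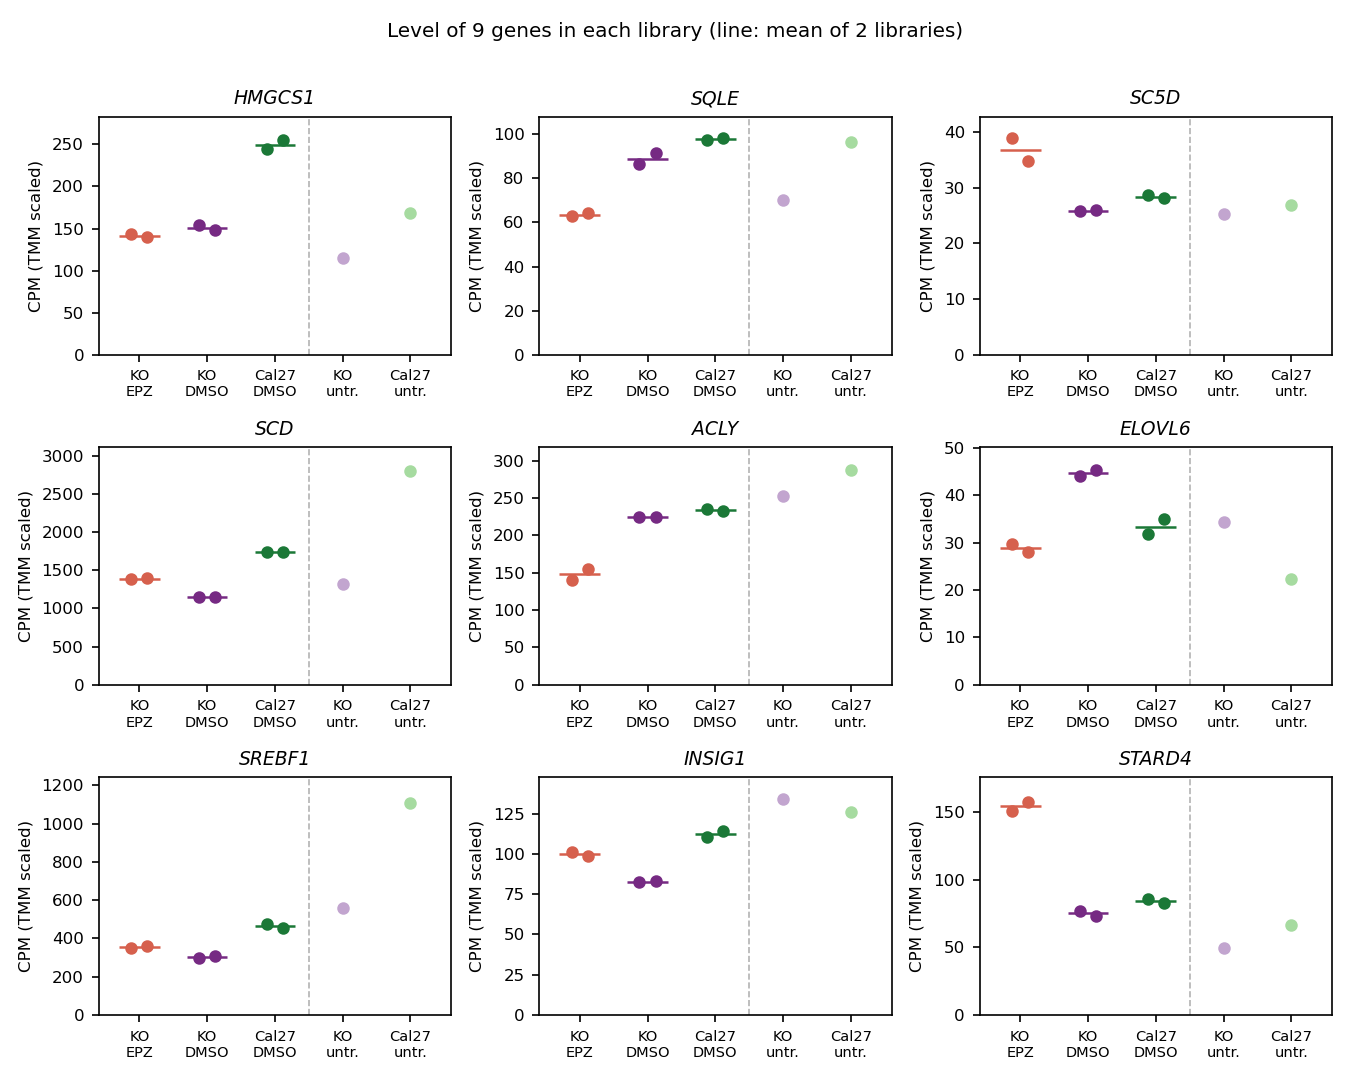
CPM after TMM scaling (vertical axes, from 0) of 9 genes in each library: the labelled knockout with EPZ-6438, with DMSO, and Cal27 with DMSO (2 points each, line at their mean), then the untreated labelled knockout and untreated Cal27 (1 point each, right of the dashed line). SCD, SREBF1 and INSIG1 are lowest of the 3 replicated groups in the labelled knockout with DMSO, HMGCS1 stays low with EPZ-6438, and SQLE, ACLY and ELOVL6 are lowest with EPZ-6438.

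Both comparisons share the DMSO libraries of the labelled knockout, so a high or low value there pushes a gene in opposite directions in each, and no overlap between them is given as a result. Values side by side were log2 0.24 with EPZ-6438 and -0.62 in the labelled knockout for SREBF1, 0.27 and -0.45 for INSIG1, 0.27 and -0.60 for SCD, and 1.05 and -0.17 for STARD4. For ELOVL6 they were -0.63 with EPZ-6438 and 0.41 in the labelled knockout, and for FDFT1 -0.19 and -0.17.

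The labelled knockout with EPZ-6438 was then set directly against Cal27 with DMSO. Of the 30 genes, 5 rose and 18 fell, or 76.7%, against a background of 26.1% higher, 25.9% lower and 52.0% in either direction. With library size alone as the scaling, 4016 genes of all were higher and 2815 lower, instead of 3456 and 3428, and 5 of the 30 were higher and 15 lower. The median was -0.18 over the 30 genes and 0.0039 over all genes on the log2 scale. Groups did not overlap for 25 of the 30 genes, against 74.9% of all genes. In the sterol branch 11 of 17 genes were lower and 1, SC5D, was higher. HMGCS1 had 143 and 140.0 CPM in the treated knockout, against 245 and 255 CPM in Cal27 (log2 -0.82 ± 0.04, SE; edgeR adjusted p = 9.16e-12), the largest decrease of the 30. SQLE had 62.9 and 64.1 CPM in the treated knockout, against 97.5 and 98.2 CPM in Cal27 (log2 -0.62 ± 0.05, SE; edgeR adjusted p = 1.33e-08). Both treated libraries lay well below both Cal27 libraries for each of these genes. FDFT1 had 289.6 and 285 CPM in the treated knockout, against 371 and 369 CPM in Cal27 (log2 -0.36 ± 0.03, SE; edgeR adjusted p = 1.43e-08). EBP had 70.0 and 75.7 CPM in the treated knockout, against 95.2 CPM in each Cal27 library (log2 -0.38 ± 0.05, SE; edgeR adjusted p = 1.07e-05). All 6 early enzymes from HMGCS1 to FDPS had log2 values below 0, and all but PMVK passed the test.

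In the fatty acid branch, 5 genes were lower and 2 higher in the treated knockout than in Cal27. The background was 25.9% lower and 26.1% higher among all genes tested. ACLY had 141 and 155 CPM in the treated knockout, against 235 and 232 CPM in Cal27 (log2 -0.66 ± 0.04, SE; edgeR adjusted p = 5.48e-10). ACACA had 164 and 169 CPM in the treated knockout, against 233 and 225 CPM in Cal27 (log2 -0.46 ± 0.04, SE; edgeR adjusted p = 1.24e-08). FASN had 496 CPM in each library of the treated knockout, against 660.3 and 627 CPM in Cal27 (log2 -0.38 ± 0.03, SE; edgeR adjusted p = 8.49e-09). The libraries of ACLY, ACACA and FASN did not overlap between the groups, nor did those of 74.9% of all genes tested. SCD had 1385 and 1393 CPM in the treated knockout, against 1741 and 1745 CPM in Cal27 (log2 -0.33 ± 0.02, SE; edgeR adjusted p = 1.53e-09), so it stood between both DMSO groups. FADS2 (log2 0.63) and FADS1 (log2 0.13) were higher. Of the regulators, STARD4 (log2 0.87 ± 0.04, SE; edgeR adjusted p = 5.05e-11) and SREBF2 (log2 0.15 ± 0.03, SE; edgeR adjusted p = 0.00126) were higher. SREBF1 (log2 -0.39 ± 0.03, SE; edgeR adjusted p = 1.45e-08) and INSIG1 (log2 -0.17 ± 0.04, SE; edgeR adjusted p = 0.00327) were lower. Summed over its 5 genes, the regulator group came to 952 and 987 CPM in the treated knockout, 788 and 793 CPM in the labelled knockout with DMSO, and 999 and 981 CPM in Cal27 with DMSO. The sterol sum was 1508 and 1528 CPM, 1680.4 and 1707 CPM, and 1862 and 1866 CPM in the same groups. The fatty acid sum was 2399 and 2427 CPM, 2437 and 2436.5 CPM, and 3069.8 and 3032 CPM. Sums weight each gene by its count, and SCD and FASN dominate the last of them.

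The untreated pair shares no library with the DMSO comparison and has 1 library per group, so it has no test. Differences there are log2 CPM after adding a prior count of 2, and each interval is an exact Poisson one at 95% and holds only the error of counting. Of the 30 genes, none was 2-fold higher and 2 were 2-fold lower in the untreated labelled knockout, against a background of 4.67% higher, 6.57% lower and 11.2% in either direction among 11661 genes with at least 100 counts in the pair. SCD was at 1326 CPM (1310.5 to 1341) in the untreated labelled knockout and at 2801 CPM (2778 to 2824) in untreated Cal27 (log2 -1.08). PMVK was at 5.68 CPM (4.73 to 6.77) in the untreated labelled knockout and at 12.1 CPM (10.7 to 13.7) in untreated Cal27 (log2 -1.08). SREBF1 was just short of 2-fold, at 561 CPM (551 to 571) in the untreated labelled knockout and 1110 CPM (1095 to 1124) in untreated Cal27 (log2 -0.98). HMGCS1 was at 115 CPM (111 to 120.1) in the untreated labelled knockout and at 168 CPM (163 to 174) in untreated Cal27 (log2 -0.54). With scaling by library size alone, which moved the median of all genes by 0.10, no gene of the 30 was 2-fold lower.

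Of the 13 genes called with DMSO, 10 had the same sign in the untreated pair, or 76.9%. Among all called genes with at least 100 counts in that pair, 3393 of 4414 had the same sign, also 76.9%. ELOVL6 was again higher, at 34.4 CPM (32.0 to 37.0) in the untreated labelled knockout and 22.4 CPM (20.4 to 24.5) in untreated Cal27 (log2 0.62). The sign differed for INSIG1, ACACA and LSS. INSIG1, which fell clearly with DMSO, was at 134 CPM (129 to 139) in the untreated labelled knockout and at 126 CPM (121 to 131) in untreated Cal27, with intervals that overlap. CYP51A1 and MSMO1, which did not pass the test with DMSO, had log2 differences of -0.56 and -0.52 in the untreated pair. FADS1 had one of 0.53. The sets also differed within a line: FASN in Cal27 was lower with DMSO than untreated by a log2 value of -1.04, and SREBF1 by -1.26, the only genes of the 30 at least 2-fold apart. In the labelled knockout 1 gene, FASN, was 2-fold apart (log2 -1.25). What besides the solvent differs between the sets is not stated, so solvent and set cannot be told apart.

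**Figure D3:**
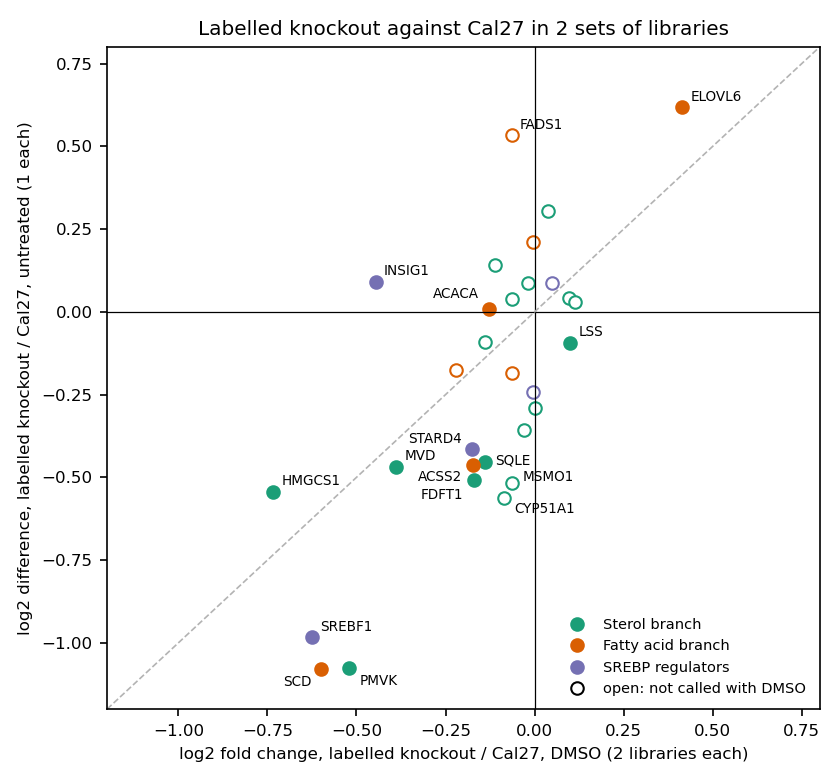
Each point is 1 of the 30 genes, with the log2 fold change of the labelled knockout over Cal27 with DMSO (horizontal axis, 2 libraries per group) and the log2 difference between the untreated libraries (vertical axis, 1 per group). Filled points passed the test with DMSO, the dashed line marks equal values, and INSIG1, ACACA and LSS are the filled points whose sign differs between the axes.

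SKN3 and BICR78 were measured untreated, with 1 library each, and were set against untreated Cal27 without a test. In SKN3, 0 of the 30 genes were 2-fold higher and 15 were 2-fold lower, against a background of 18.5% higher, 17.8% lower and 36.3% in either direction among 12169 genes. The 30 genes had a median log2 difference of -1.01, against -0.044 over all genes. SCD was at 170 CPM (164 to 176) in SKN3 and at 2801 CPM (2778 to 2824) in Cal27 (log2 -4.04). INSIG1 was at 10.2 CPM (8.78 to 11.7) in SKN3 and at 126 CPM (121 to 131) in Cal27 (log2 -3.61). SREBF1 was at 174 CPM (168 to 180) in SKN3 and at 1110 CPM (1095 to 1124) in Cal27 (log2 -2.68). Those decreases were far wider than counting error, and the same line had higher values of SCAP (log2 0.73), FADS2 (log2 0.48), SC5D (log2 0.42), HSD17B7 (log2 0.40) and TM7SF2 (log2 0.21), of which TM7SF2 had intervals that overlapped those of Cal27. In the sterol branch, 10 of 17 genes were 2-fold lower, led by LSS at 49.5 CPM (46.3 to 52.8) in SKN3 and 226 CPM (219.9 to 233) in Cal27 (log2 -2.19). PMVK (log2 -0.0053) and NSDHL (log2 -0.042) had overlapping intervals, and SQLE (log2 -0.24) did not.

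In BICR78, 2 genes were 2-fold higher and 9 were 2-fold lower, against a background of 13.6% higher, 9.09% lower and 22.7% in either direction among 12174 genes. The median log2 difference was -0.44 over the 30 genes and -0.039 over all genes. The lower genes were 8 of the sterol branch and SREBF2. SQLE was at 23.3 CPM (21.2 to 25.6) in BICR78 and at 96.4 CPM (92.3 to 101) in Cal27 (log2 -2.04), and DHCR7 at 88.1 CPM (84.0 to 92.4) in BICR78 and 268 CPM (261 to 275) in Cal27 (log2 -1.60). SREBF2 was at 169.6 CPM (164 to 176) in BICR78 and at 415 CPM (407 to 424) in Cal27 (log2 -1.29). Both higher genes were neighbouring desaturases. FADS2 was at 144 CPM (139 to 149.6) in BICR78 and at 11.4 CPM (9.95 to 12.9) in Cal27 (log2 3.65), and FADS1 at 193 CPM (187 to 199) in BICR78 and 93.5 CPM (89.3 to 97.7) in Cal27 (log2 1.04). The fatty acid branch otherwise stayed within 2-fold of Cal27, with SCD at 3425 CPM (3399 to 3451) in BICR78. Mitochondrial genes took 12.1% of the counts in BICR78, 6.29% in SKN3 and 7.48% in untreated Cal27, and the part of this in the differences was not tested. Cell lines differ in origin as well as in any single gene, and each stands for itself.

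**Figure D4:**
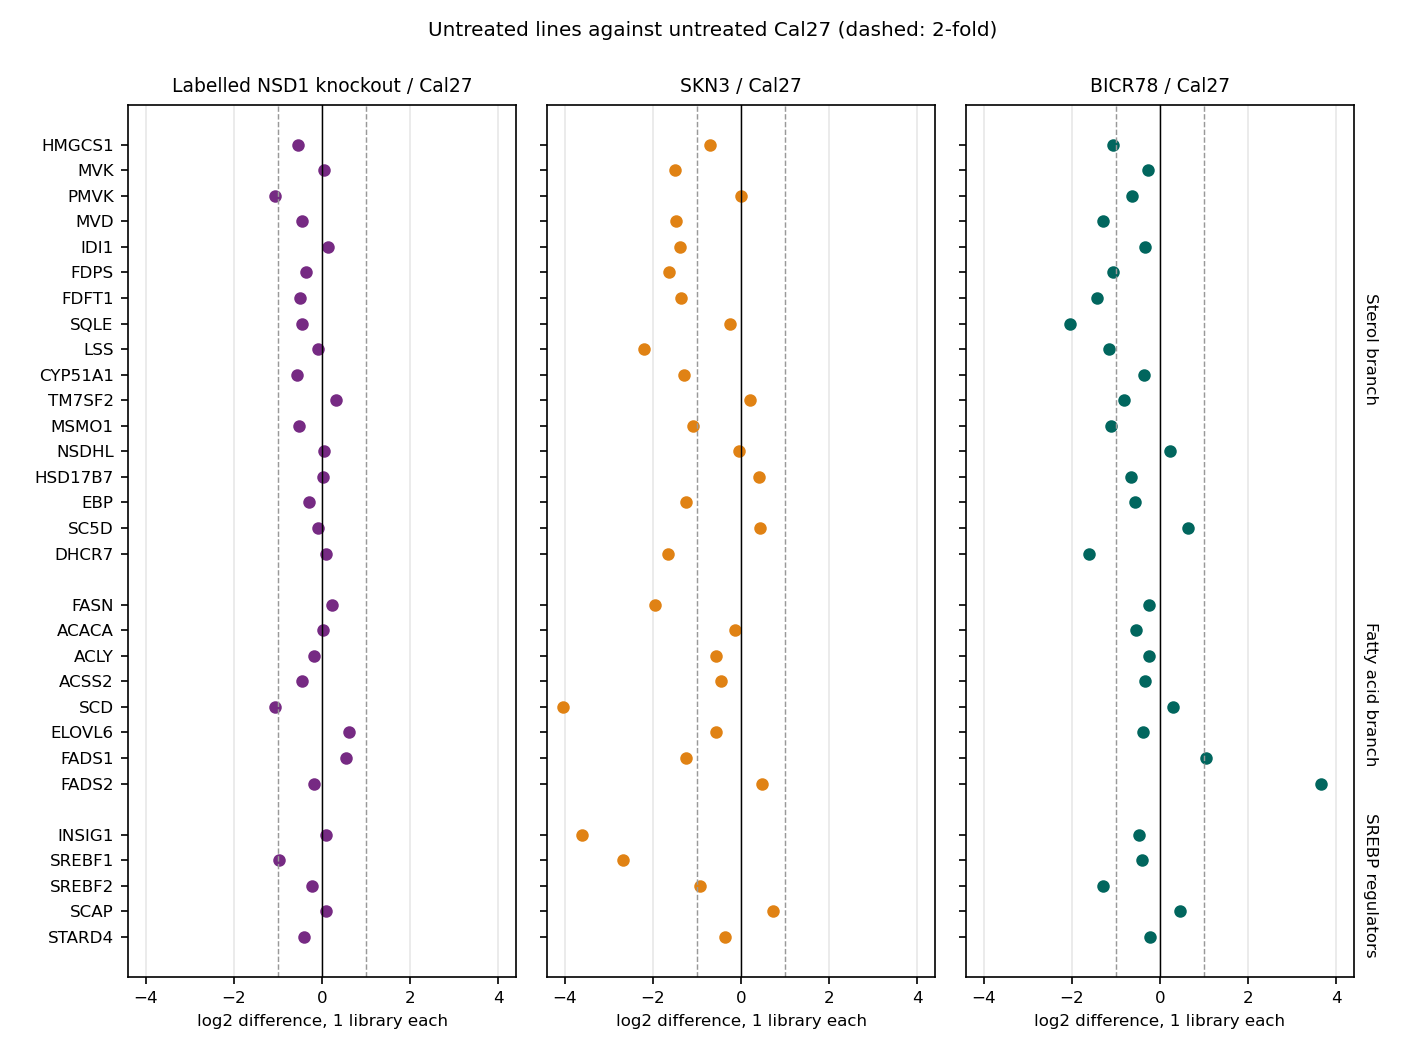
Log2 difference in CPM (horizontal axis) of each of the 30 genes between single untreated libraries, for the labelled NSD1 knockout (left), SKN3 (middle) and BICR78 (right), each over untreated Cal27. Dashed lines mark 2-fold, beyond which 2, 15 and 11 genes lie, with SCD at -4.04 in SKN3 and FADS2 at 3.65 in BICR78 the farthest out.

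Genes outside the 30 that take part in the same pathways were read from 6 lists. Not every gene with a low adjusted p is named, and some of the names were picked after their values were seen. Of 11 other tested genes of sterol and isoprenoid synthesis, 2 rose and 4 fell in the labelled knockout, where 16.4% of all genes tested rose and 19.5% fell. Among those that fell were ERG28 (log2 -0.16) and PDSS1 (log2 -0.42), and LBR (log2 0.36) and COQ2 (log2 0.33) rose. With EPZ-6438, where 25.6% of all genes tested rose and 23.9% fell, 1 gene, GGPS1 (log2 0.25), rose and 8 fell, among them ACAT2 (log2 -0.48), a thiolase at the head of the mevalonate route, and TMEM97 (log2 -0.26). Of 10 genes that process or degrade SREBP or its partners, 2 rose and none fell in the labelled knockout, ERLIN1 (log2 0.22) and FBXW7 (log2 0.40), with INSIG2 at -0.22 and not called. Called genes were thus 35.9% of all in the labelled knockout and 49.6% with EPZ-6438, against which these small counts are to be read. With EPZ-6438, 3 rose and 2 fell. INSIG2, the sister of INSIG1, rose (log2 0.53), as did MBTPS1 (log2 0.16) and SPRING1 (log2 0.18), and ERLIN1 (log2 -0.19) was among those that fell.

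Of 14 genes of cholesterol uptake, storage and export, 7 rose and 3 fell in the labelled knockout, against a background of 16.4% higher and 19.5% lower. Among those that rose were VLDLR (log2 0.43) and SCARB1 (log2 0.20), both lipoprotein receptors. The genes that fell were the sterol exporters ABCA1 (log2 -1.17) and ABCG1 (log2 -0.64) and the ubiquitin ligase MYLIP (log2 -0.45). With EPZ-6438, 6 rose and 3 fell, against a background of 25.6% higher and 23.9% lower. ABCA1 averaged 61.7 ± 0.11 CPM with EPZ-6438 and 15.3 ± 0.18 CPM with DMSO (SD, n = 2 each; log2 2.01 ± 0.07, SE; edgeR adjusted p = 3.63e-13). LIPA, the lysosomal lipase that frees cholesterol, also rose (log2 0.61), and SOAT1 (log2 -0.19), which esterifies cholesterol for storage, was among those that fell.

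Of 15 other tested genes of fatty acid synthesis, elongation and desaturation, 4 rose and 5 fell in the labelled knockout, and 4 rose and 8 fell with EPZ-6438. For these and the next lists the background was 16.4% higher and 19.5% lower in the labelled knockout, and 25.6% higher and 23.9% lower with EPZ-6438. SCD5, the second human stearoyl-CoA desaturase, rose in the labelled knockout (log2 0.62), where SCD fell, and FADS3 rose (log2 0.39). HACD3 (log2 0.12) and HSD17B12 (log2 0.12) rose slightly. ACACB, the carboxylase at the mitochondrial surface, fell (log2 -1.17), with low means of 1.30 ± 0.41 CPM in the labelled knockout and 2.95 ± 0.70 CPM in Cal27 (SD, n = 2 each). SLC25A1 (log2 -0.18), HACD2 (log2 -0.11), ELOVL1 (log2 -0.16) and ELOVL7 (log2 -0.23) also fell. With EPZ-6438, HACD2 (log2 -0.41) and ME1 (log2 -0.39) fell, and the elongase ELOVL7 rose (log2 0.65). So did ELOVL4 (log2 1.46), ACACB (log2 1.15 ± 0.33, SE) and MLXIPL (log2 1.16 ± 0.46, SE; edgeR adjusted p = 0.0457). Levels were low, with means of 2.91 CPM with EPZ-6438 and 1.30 CPM with DMSO for ACACB. For MLXIPL the means were 1.35 CPM with EPZ-6438 and 0.60 CPM with DMSO. Of 12 genes of fatty acid activation and glycerolipid synthesis, 3 rose and 3 fell in the labelled knockout. LPIN2 (log2 1.09), ACSL5 (log2 0.76) and LPIN1 (log2 0.32) rose, and AGPAT2 (log2 -0.94), DGAT2 (log2 -0.75) and ACSL3 (log2 -0.12) fell. With EPZ-6438, 7 rose and 2 fell, and DGAT2, which makes triglyceride, averaged 13.0 ± 0.71 CPM with EPZ-6438 and 2.67 ± 0.40 CPM with DMSO (SD, n = 2 each; log2 2.29). ACSL3 (log2 0.57) and AGPAT2 (log2 0.68) rose with it, and PNPLA3 (log2 -1.11) and DGAT1 (log2 -0.36) fell. Of 12 genes of fatty acid oxidation, 1 rose and 5 fell in the labelled knockout, with HADH up (log2 0.37) and HADHB (log2 -0.37), ACADVL (log2 -0.16), CPT2 (log2 -0.31), ECHS1 (log2 -0.16) and HADHA (log2 -0.094) down. With EPZ-6438, 2 rose and 5 fell, and CPT1A, the gate of mitochondrial import, averaged 34.8 ± 0.36 CPM with EPZ-6438 and 76.0 ± 8.2 CPM with DMSO (SD, n = 2 each; log2 -1.12). HADHA (log2 -0.30) and HADHB (log2 -0.36), which together form an enzyme complex, fell as well, with ACADM (log2 -0.27), and PPARA (log2 0.53) and ACADVL (log2 0.21) rose.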

How the data were processed

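RNA was extracted with TRIzol and ribosomal RNA was depleted before library preparation, per the labels' protocols. The authors deposited whole-number read counts per gene, with no normalization; the submitters' processing notes name CASAVA 1.7, HISAT2 2.1.0, featureCounts 1.6.1, Picard 2.23.1 and build hg38, without their order, annotation or strand setting. The 7 CUT&Tag samples were not analysed here. Groups came from the labels.

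From these counts, edgeR 4.0.16 in R 4.3.3 (TMM scaling, filterByExpr, quasi-likelihood test, Benjamini-Hochberg adjustment over 13241 genes, threshold 0.05) fitted the 6 replicated libraries as 3 groups, with 3 residual degrees of freedom. CPM were scaled over all 10 libraries, which moved the 6 by at most 0.386%. Depth limits precision: unreplicated pairs got log2 differences with a prior count of 2 and exact Poisson intervals, which hold only the error of counting. Alternatives were DESeq2 1.42.0, other scaling and filters, a replicate block, a fold threshold and each library left out. The fit was checked on simulated data. Sequences came from RefSeq, GRCh38.p14.

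The 30 genes and all lists were chosen with earlier results of these data known. All 30 were named, with full statistics for the 4 lowest adjusted p in each branch and comparison; from each other list, up to 3 genes with the lowest adjusted p in the first 2 comparisons were to be named, and some genes of these lists are not reported here. Replicates of a group differed by more than sampling noise.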

Additional observations from a re-analysis of the deposited data

Results flagged for a closer look

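INSIG1 was flagged because the labelled knockout differed from Cal27 in opposite directions in the 2 sets of libraries, with a log2 difference of 0.091 in the untreated pair and -0.45 with DMSO. ACACA was flagged for the same reason, with 0.0094 in the untreated pair and -0.13 with DMSO. LSS had -0.093 in the untreated pair and 0.10 with DMSO, and scaling by library size alone turned its sign in the untreated pair. None of these differences between the sets was tested, since the untreated set has 1 library per group.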

How the results depend on the processing

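No called gene of the 30 changed sign in the replicated comparisons. Genes that were not called did: in the labelled knockout FDPS, TM7SF2, NSDHL, EBP, DHCR7, FASN, FADS1, SREBF2 and SCAP had log2 values on both sides of 0, with FADS1 between -0.11 and 0.14. So did MVD, NSDHL and HSD17B7 with EPZ-6438, and LSS, NSDHL, ACSS2 and SCAP in the treated knockout over Cal27. With library size alone, the split of all genes in the labelled knockout turned to 2978 higher and 2088 lower, from 2169 and 2580. In the labelled knockout over Cal27, 6 of 13 called genes (HMGCS1, MVD, FDFT1, SCD, ELOVL6 and SREBF1) were called in all 15 alternatives that kept the test of no change. With EPZ-6438 over DMSO this held for 17 of 21 genes in 14 alternatives, and for the treated knockout over Cal27 for 19 of 23. Genes called higher in the labelled knockout numbered 1 instead of 2 in DESeq2, with a stricter low-count filter, with the replicate block and with the untreated pair added. Genes called lower numbered 7 instead of 11 in DESeq2 and with library size alone. Calls among all genes fell in DESeq2 too, to 1512 higher and 1736 lower in the labelled knockout, from 2169 and 2580. Tested against a log2 fold of 0.5, 0 of the 30 were higher and 3 lower in the labelled knockout (248 and 618 of all), 2 and 1 with EPZ-6438 (1272 and 204 of all), and 1 and 3 in the treated knockout over Cal27 (1053 and 424 of all). With the untreated pair added, 1354 genes of all were higher and 1604 lower in the labelled knockout. In the untreated pair, 0 instead of 2 genes were 2-fold lower with library size alone. The cause of these shifts was not tested.

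Leaving out 1 library at a time gave 1 to 2 genes higher and 7 to 11 lower in the labelled knockout. The count of 7 came without replicate 1 of Cal27 with DMSO and without replicate 2 of the labelled knockout with DMSO, and LSS was lost without any 1 of its 4 libraries or replicate 2 with EPZ-6438. Without replicate 2 of Cal27, 3 instead of 5 sterol genes were lower. Counts were 8 to 9 higher and 9 to 12 lower with EPZ-6438, and 4 to 5 higher and 15 to 18 lower in the treated knockout over Cal27. A lone library left in a group is assumed to vary like the others. Without a library of the groups compared, fewer of all tested genes were called too. Same-numbered libraries did not deviate together (correlations 0.014, -0.044 and 0.0035). No shared replicate effect was visible, which cannot show whether the libraries were prepared in pairs. With the replicate block, 1 gene was higher and 11 lower in the labelled knockout, and 2054 and 2458 of all genes.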
